A study of Drosophila melanogaster with 75 samples.

Results

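The ribosomal protein genes of Drosophila melanogaster were followed in male heads after mating and after courtship. A gene was taken as a member when its symbol in the array annotation began with RpL or RpS, which covers proteins of the large and small cytosolic subunit and leaves out the mitochondrial ribosome. The annotation used here assigned probe sets to 11982 genes, of which 41 met this rule, and the brightest probe set stood for each gene. Of the 41 genes, 33 had a mean intensity above 100 over all arrays and entered the comparisons. These 33 were 16 genes of the large subunit, 11 of the small subunit, the 3 stalk genes RpLP0, RpLP1 and RpLP2, and RpL7-like, RpL24-like and RpLP0-like, which are named after ribosomal proteins but belong with the factors that assemble the large subunit. The reference gene list holds 92 symbols of this form, and genes that the annotation used here did not name, RpS6 among them, were not analysed.

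Heads of isogenized Canton-S males, a wild-type strain, were compared in 3 groups of 5 Affymetrix Drosophila Genome 2.0 arrays. Mated males had been placed with a virgin female and copulated, courted males were kept with a virgin female that had been cauterized, and control males had been given no female. All males were virgins before the test, were 5 days old and were collected 2 hrs after the mated male had finished. Each array held RNA from a pool of 30 whole heads, so that the values are averages over brain, eye, fat body and other head tissues.

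Every ribosome is built from ribosomal RNA and a set of ribosomal proteins that are needed in nearly equal numbers, and their genes are transcribed together at a high level in most cells. In Drosophila, loss of a single copy of many of these genes gives the Minute phenotype of slow development and thin bristles. Their transcripts are also favoured reference genes, and RpL32, long known as rp49, served that purpose in the quantitative PCR of this study.

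RNA of courted replicate 4 stood apart from the rest before any group was compared. For the eIF-4a control transcript, the 5′ probe set minus the 3′ probe set was -6.00 on the log2 scale in that array, against -2.08 to -1.16 in the other 14 arrays. The GAPDH and Act5C controls gave -2.36 and -5.16 there, and its mean correlation with the other arrays was 0.972, against 0.982 to 0.991 elsewhere. Next in order were control replicate 2 and courted replicate 3, with eIF-4a differences of -2.08 and -1.96. Markers of photoreceptors were above the threshold for 5 of 5 genes. Of 6 neuronal markers 3 were, while elav, brp and para were below it. All 7 markers of testis and male germ line were below it, with summed intensities of 36.6 to 41.0 in mated, 37.4 to 42.6 in courted and 37.4 to 39.9 in control arrays. The summed intensities of 5 glial markers were 21493 to 24823 in mated, 19810 to 22639 in courted and 19210 to 21621 in control arrays, and those of 6 haemocyte markers 6240 to 7667 in mated, 6035 to 7288 in courted and 5191 to 6318 in control arrays, so that mated and control ranges overlapped only at their edges. The fat body and muscle lists overlapped more widely.

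Mating left no difference in a ribosomal protein gene that passed the test. In mated against control heads, 0 of 33 genes passed an adjusted p of 0.05 in limma, and 0 of the 7631 probe sets tested did (0%). At an unadjusted p under 0.05 the count was 0 of 33, beside 727 of 7631 probe sets (9.53%). This count varied with how the variance was estimated. It was 1 of 33 with limma-trend (718 of 7631 probe sets), with a Cyber-T style test (631) and in a fit without courted replicate 4 (763). With no filter on low values it was 4 of 33, beside 1010 of 18769 probe sets. The mated and control arrays of a gene were fully separated for 0 of 33 members and for 1.43% of all probe sets. The median log2 difference of the members was -0.017 and that of all probe sets was -0.015, with 12 members above 0 and 21 below. The split varied with the processing. It was 19 above and 14 below in dChip PM, 20 and 13 in dChip PM-MM and 6 and 27 in MAS5.0. It was 17 above and 16 below without replicate pair 4 (median 0.0030), 16 and 17 without pair 3 (median -0.00077), 7 and 26 without pair 5 (median -0.033), and 16 and 17 with each array centred on its median (median -0.00057). In whole heads, fewer cells of a type and less RNA per cell cannot be told apart.

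In GC-RMA the intervals bound how large a difference could have been missed. For mated against control heads the lowest 95% bound of any member was -0.23 (0.852-fold) and the highest was 0.17 (1.12-fold). All 33 intervals, each for the brightest probe set of a gene, thus lay within 0.25 of 0 on the log2 scale (1.19-fold). For mated against control heads a second RpL3 probe set differed by 0.14 (SE 0.10, limma adjusted p = 0.64), against -0.0069 for the brightest. A second set of RpS29 gave 0.037, against 0.047. Of the 33 differences, 32 were smaller than 0.10, as were 72.5% of those of all probe sets. The median standard error was 0.044 among the members and 0.059 among all probe sets. In limma the variance of each probe set is pulled toward a value estimated from all of them, so these errors are not the members' own spread alone. For RpS28b, with a pooled SD within groups of 0.020, the standard error was 0.040, and 0.0068 with no filter on low values. The limit of 0.25 did not hold in MAS5.0. There the interval for mated against control heads was -0.30 to 0.19 for RpLP2, -0.29 to 0.17 for RpL29 and -0.19 to 0.30 for RpL41.

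Courted against control heads also gave 0 of 33 members at an adjusted p under 0.05 in limma (0% of all 7631 probe sets) and 0 of 33 at an unadjusted p under 0.05 (3.3% of all). Groups were separated for 0 members, against 0.524% of all probe sets. The median difference was -0.022, with 7 members above 0 and 26 below, and the median of all probe sets was 0.0033. The split varied with courted replicate 4. Without this array, in a fit of the other 14, it was 15 above and 18 below with a median of -0.0087 (all probe sets -0.0099), or 11 and 22 with no replicate block (median -0.019), and without the replicate 4 pair 16 above and 17 below with a median of -0.0024. These controls are the same arrays as in the comparison with mated heads. Mated against courted heads had 0 of 33 at an adjusted p under 0.05 in limma (0%), 0 of 33 at an unadjusted p under 0.05 (3.38% of all) and 0 separated (0.944% of all), with a median of 0.0078 over the members and -0.018 over all probe sets. In GC-RMA 30 of the 33 intervals lay within 0.25 of 0 in each of these comparisons. The exceptions were RpLP0, RpLP2 and RpL34a for courted against control heads and RpLP0, RpLP2 and RpL24-like for mated against courted heads.

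**Figure D1:**
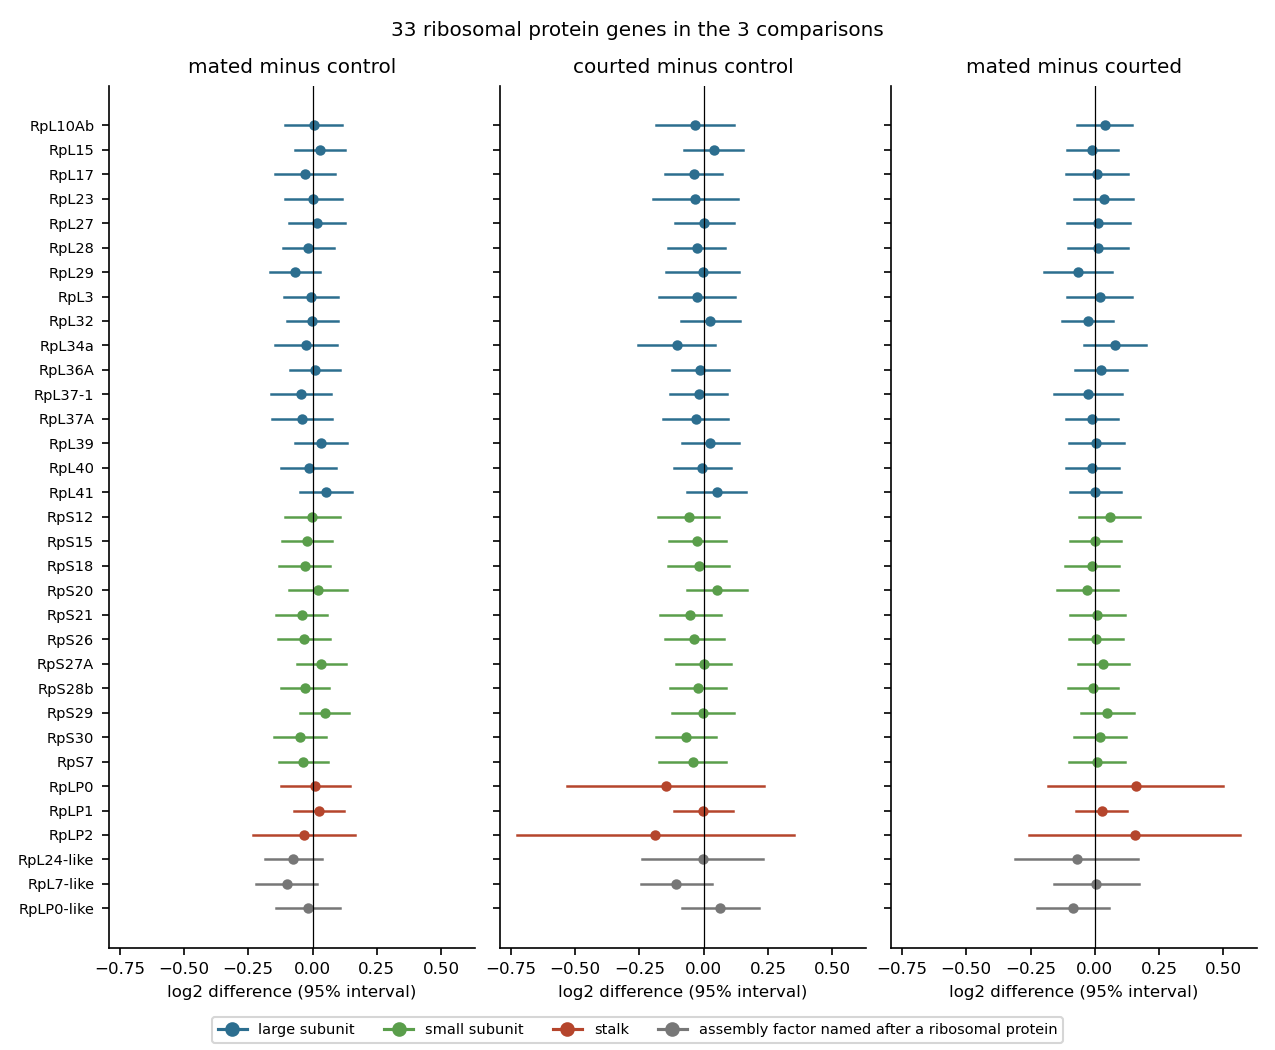
Log2 difference of each of the 33 genes (points) with its 95% interval (lines) in R/Bioconductor GC-RMA, 5 arrays per group, for mated minus control, courted minus control and mated minus courted heads, with colours for the class of protein. Every interval includes 0, and those of RpLP0 and RpLP2 were the widest in the comparisons that involve courted heads.

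RpL32 sits in the large subunit and was the reference transcript of the study. Its log2 intensities were 14.55, 14.62, 14.60, 14.62 and 14.61 in mated replicates 1 to 5. Courted replicates had 14.58, 14.68, 14.65, 14.62 and 14.63, and control replicates had 14.59, 14.59, 14.67, 14.61 and 14.56. The 15 arrays spanned 0.12, and the groups overlapped throughout. RpL32 averaged 14.60 ± 0.03 in mated and 14.60 ± 0.04 in control heads (SD, n = 5 each), a difference of -0.0010 (SE 0.04, 95% interval -0.10 to 0.10, limma adjusted p = 0.99). Courted heads averaged 14.63 ± 0.04 (SD, n = 5), a difference from control heads of 0.026 (95% interval -0.088 to 0.14, limma adjusted p = 0.99). With the values from MAS5.0 the same arrays were noisier. RpL32 averaged 13.83 ± 0.08 in mated, 13.78 ± 0.14 in courted and 13.85 ± 0.23 in control heads (SD, n = 5 each), and the interval for mated minus control widened to -0.27 to 0.22.

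The stalk of the large subunit recruits the elongation factors to the ribosome. RpLP0 anchors it to the ribosomal RNA, and the small acidic proteins RpLP1 and RpLP2 attach to RpLP0. RpLP0 had log2 intensities of 14.34, 14.32, 14.39, 14.51 and 14.32 in mated replicates 1 to 5, of 14.42, 14.36, 14.12, 13.73 and 14.46 in courted replicates, and of 14.37, 14.14, 14.55, 14.50 and 14.26 in control replicates. The mated values lay close together inside the control range, and courted replicate 4 was the lowest of all 15. RpLP2 had 14.04, 14.02, 14.08, 14.24 and 14.08 in mated, 14.12, 14.15, 13.84, 13.30 and 14.28 in courted, and 14.16, 13.72, 14.33, 14.42 and 13.99 in control replicates. Its 3 lowest arrays, courted replicate 4, control replicate 2 and courted replicate 3, were also the 3 lowest for RpLP0. RpLP1 did not share this spread. It had 14.93, 14.96, 15.00, 14.94 and 14.95 in mated, 14.88, 14.95, 14.94, 14.91 and 14.96 in courted, and 14.88, 14.94, 14.96, 14.98 and 14.90 in control replicates.

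**Figure D2:**
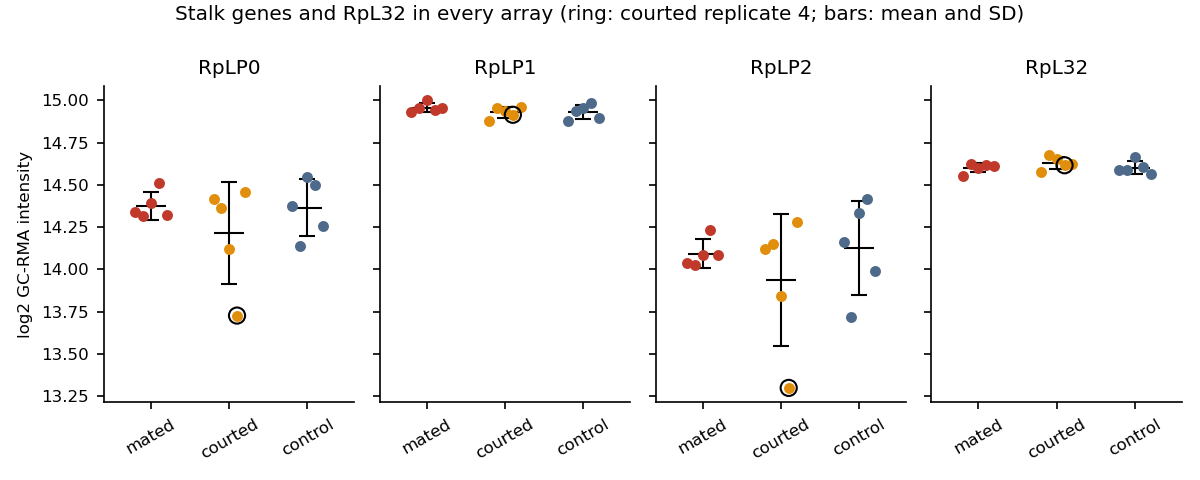
Log2 GC-RMA intensity of RpLP0, RpLP1, RpLP2 and RpL32 in each of the 5 mated, 5 courted and 5 control arrays (points), with mean and SD (bars) and a ring around courted replicate 4. RpLP0 and RpLP2 spread widely in courted and control heads and lay lowest in courted replicate 4 (13.73 and 13.30), while the 15 values of RpLP1 and of RpL32 each spanned 0.12.

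For mated against control heads RpLP0 differed by 0.011 (SE 0.06, limma adjusted p = 0.95), RpLP1 by 0.026 (SE 0.04, adjusted p = 0.83) and RpLP2 by -0.033 (SE 0.09, adjusted p = 0.90). For courted against control heads the difference was -0.15 for RpLP0 and -0.19 for RpLP2, with standard errors of 0.16 and 0.22 and limma adjusted p = 0.99 for both. These were the 2 lowest differences of any member in that comparison, and they rested on courted replicate 4. Without the replicate 4 pair they were 0.0083 and 0.046, and without courted replicate 4 alone, in a fit of the other 14 arrays, 0.0081 and 0.027. For mated against courted heads RpLP0 differed by 0.16 and RpLP2 by 0.15 (limma adjusted p = 0.98 for both). Without courted replicate 4 these differences were 0.0032 and -0.060.

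RpLP0 and RpLP2 varied together over the 15 arrays. Pearson's r was 0.976 and Spearman's rho 0.946 (permutation p = 1e-05 for each, the smallest that 100000 permutations can give, adjusted to 3e-05 and 4.5e-05 over 9 relations). The permutations shuffled all 15 arrays without regard to group, replicate number or loss of 5′ signal. The relations are gene pairs repeated in GC-RMA, dChip PM and MAS5.0 values of the same arrays. Without the 2 arrays farthest from the median of RpLP0, r was 0.941. The same pair had r = 0.891 in dChip PM and 0.981 in MAS5.0. In MAS5.0 the members shifted as a group from array to array (below), so the value there is not particular to this pair. RpLP1 had r = 0.288 with RpLP0 (permutation p = 0.30, adjusted p = 0.35) and 0.308 with RpLP2 (permutation p = 0.27, adjusted p = 0.35) in GC-RMA. In dChip PM both values were below 0 (-0.278 and -0.260), and in MAS5.0 they were 0.888 and 0.873, so that the relation of RpLP1 to its partners depended on the algorithm. Groups of 5 arrays were too small for r within a group.

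The 3 arrays in which RpLP0 was lowest, and RpLP2 too, were those with the largest loss of 5′ signal in the eIF-4a and GAPDH control transcripts. For Act5C, courted replicate 4 and control replicate 2 (-2.58) were also lowest, but mated replicate 2 (-2.50) lay just below courted replicate 3 (-2.48). The part of RNA quality in the spread of RpLP0 and RpLP2 was not tested. A second probe set of RpL3, whose protein lies near the peptidyl transferase centre, behaved alike. It read 3.74 in courted replicate 4, 6.72 in courted replicate 3 and 6.76 in control replicate 2, against 7.37 to 8.09 in the other 12 arrays. The brightest probe set of RpL3 varied far less, with 14.09 in courted replicate 4 and 14.13 or more in the other arrays. It averaged 14.22 ± 0.06 in mated, 14.20 ± 0.07 in courted and 14.23 ± 0.08 in control heads (SD, n = 5 each). The second probe set gave a difference of -0.61 (SE 0.72, limma adjusted p = 0.99) for courted against control heads and the brightest gave -0.026 (SE 0.06, limma adjusted p = 0.99).

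**Figure D3:**
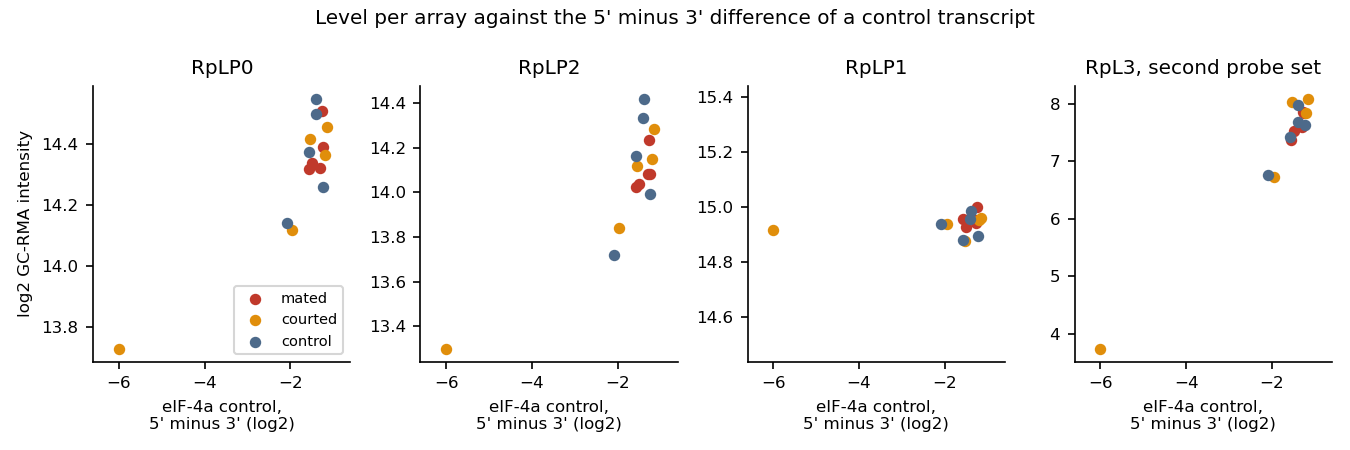
Log2 GC-RMA intensity of RpLP0, RpLP2, RpLP1 and the second probe set of RpL3 in each array (vertical axes, with different ranges) against the 5′ minus 3′ log2 difference of the eIF-4a control transcript in the same array (horizontal axis), with points coloured as mated, courted or control. Courted replicate 4 lies far left at -6.00 and lowest for RpLP0, RpLP2 and the second RpL3 probe set, while RpLP1 there was 14.91, within its range in the other arrays.

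Courted replicate 4 held the lowest value of 9 of the 33 members and the highest value of 5. Over all 7631 probe sets it held the lowest of 14.4% and the highest of 25.1%. Besides RpLP0 and RpLP2, the members lowest there were RpL3, RpL10Ab, RpL23, RpL34a, RpS7, RpS18 and RpS30, and those highest there were RpL17, RpL24-like, RpL29, RpL37-1 and RpS20.

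Among the assembly factors, RpL7-like had the lowest p of all members in both comparisons with control heads. Its human homolog, RPL7L1, acts on precursors of the large subunit. RpL7-like read 10.61, 10.59, 10.53, 10.36 and 10.47 in mated, 10.52, 10.44, 10.50, 10.61 and 10.46 in courted, and 10.60, 10.65, 10.71, 10.57 and 10.53 in control replicates. Both other groups overlapped the control range from below. The difference was -0.10 (SE 0.05, unadjusted p = 0.085, limma adjusted p = 0.53) for mated heads, with 4 of 5 pairs lower. For courted heads it was -0.11 (SE 0.06, unadjusted p = 0.11, limma adjusted p = 0.99), again with 4 of 5 pairs lower. The comparisons share the control arrays. Without courted replicate 4 the courted difference was -0.16 in the fit of all other arrays (limma unadjusted p = 0.0085, adjusted p = 0.81). It was -0.13 with no replicate block (limma unadjusted p = 0.027), and -0.14 without the replicate 4 pair (limma unadjusted p = 0.042). The fits without courted replicate 4 alone were chosen after seeing the data. In MAS5.0, with replicate 4 kept, the courted difference was -0.034 (limma unadjusted p = 0.69) and the mated difference -0.066 (p = 0.28). In dChip PM they were -0.105 and -0.097 (limma unadjusted p = 0.14 and 0.058).

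RpL24-like, whose yeast counterpart occupies the place of the later RpL24 on precursor particles, read 12.43, 12.45, 12.41, 12.20 and 12.25 in mated replicates. Courted replicates had 12.31, 12.39, 12.44, 12.72 and 12.24, and control replicates 12.55, 12.56, 12.35, 12.34 and 12.32. Courted replicate 4 was the highest array, and the groups overlapped. The difference of mated from control heads was -0.074 (SE 0.05, limma adjusted p = 0.60).

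RpLP0-like, related to the yeast factor that precedes RpLP0 in the assembling subunit, read 7.99, 8.03, 8.0, 7.83 and 8.03 in mated, 8.03, 8.0, 8.15, 8.09 and 8.03 in courted, and 8.15, 8.0, 7.96, 7.94 and 7.93 in control replicates. Mated and courted arrays overlapped. Their difference was -0.084 (SE 0.06, limma adjusted p = 0.98), the lowest of any member in that comparison in GC-RMA, but 0.042 in dChip PM and 0.0043 in dChip PM-MM, and without the replicate 4 pair it was -0.039. In GC-RMA all 3 assembly factors were below 0 for mated against control heads. RpLP0-like (-0.018) turned above 0 in dChip PM (0.085), dChip PM-MM (0.069) and GeneSpring GC-RMA (0.0050). For courted against control heads RpLP0-like was above 0 at 0.065 (SE 0.06, limma adjusted p = 0.99).

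In the large subunit, 7 of the 16 genes had a positive and 9 a negative difference in mated heads, with a range of -0.068 to 0.052. RpL29, a small basic protein on the surface of the subunit, was at the low end. It read 14.54, 14.61, 14.53, 14.61 and 14.57 in mated and 14.64, 14.65, 14.59, 14.66 and 14.66 in control replicates, lower in 5 of 5 pairs. Courted replicates had 14.55, 14.57, 14.66, 14.83 and 14.57, with replicate 4 above every other array. The mated difference was -0.068 (SE 0.04, unadjusted p = 0.14, limma adjusted p = 0.58), and mated and control ranges overlapped in 1 control array. The SD of RpL29 was 0.039 in mated, 0.12 in courted and 0.027 in control heads. Where the fit took the variance from genes of like intensity (limma-trend) its unadjusted p was 0.021 and its adjusted p 0.50. The mated difference was -0.030 in dChip PM, -0.022 in dChip PM-MM and -0.058 in MAS5.0 (limma unadjusted p = 0.50, 0.58 and 0.58). In GeneSpring GC-RMA it was -0.059 (limma unadjusted p = 0.18).

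RpL41, a very short peptide, was at the other end. It read 15.15, 15.15, 15.19, 15.14 and 15.16 in mated, 15.19, 15.17, 15.15, 15.14 and 15.13 in courted, and 15.17, 15.05, 15.08, 15.10 and 15.13 in control replicates. The control arrays reached lower but overlapped both other groups. The difference was 0.052 (SE 0.04, limma adjusted p = 0.68) for mated and 0.050 (SE 0.05, limma adjusted p = 0.99) for courted heads, on shared control arrays. RpL34a read 12.56, 12.58, 12.59, 12.49 and 12.64 in mated, 12.46, 12.54, 12.63, 12.32 and 12.52 in courted, and 12.57, 12.68, 12.62, 12.61 and 12.50 in control replicates. Courted replicate 4 was again the lowest. RpL34a had the lowest p for mated against courted heads, at 0.078 (SE 0.05, unadjusted p = 0.16, limma adjusted p = 0.98), and differed by -0.10 (SE 0.06, unadjusted p = 0.14, limma adjusted p = 0.99) in courted against control heads. Without courted replicate 4, in the fit of the other 14 arrays, these differences were 0.0435 and -0.069, and without the replicate 4 pair 0.055 and -0.058.

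Among the large subunit genes other than RpL29 and RpL41, the differences of mated from control heads were widest for RpL37-1 (-0.045, limma adjusted p = 0.76) and RpL37A (-0.042, limma adjusted p = 0.77). RpL15, RpL17 and RpL39, which line or surround the exit tunnel of the growing chain, differed in mated heads by 0.028, -0.029 and 0.031. RpL40, which is made as a fusion to ubiquitin, differed by -0.015, and RpL10Ab, the protein of the L1 stalk that guides spent transfer RNA, by 0.0046. All 5 of these had a limma adjusted p above 0.8.

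In the small subunit, 3 of 11 genes had a positive and 8 a negative difference in mated heads, between -0.050 and 0.047. RpS29 was the highest. It read 14.62, 14.60, 14.66, 14.65 and 14.59 in mated, 14.58, 14.57, 14.67, 14.57 and 14.48 in courted, and 14.60, 14.52, 14.62, 14.58 and 14.58 in control replicates. Mated values were above control values in 5 of 5 pairs, though the ranges overlapped. The difference was 0.047 (SE 0.04, limma adjusted p = 0.69), and a second probe set of RpS29 gave 0.037 (SE 0.05, limma adjusted p = 0.78). RpS30 was the lowest. It read 14.35, 14.40, 14.41, 14.34 and 14.34 in mated, 14.36, 14.39, 14.41, 14.29 and 14.29 in courted, and 14.40, 14.38, 14.52, 14.42 and 14.37 in control replicates. The ranges overlapped here too. Its difference was -0.050 (SE 0.04, limma adjusted p = 0.69) in mated and -0.070 (SE 0.05, limma adjusted p = 0.99) in courted heads, again on shared controls.

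RpS12, through which Drosophila cells with too few ribosomal proteins are recognised in cell competition, read 14.50, 14.39, 14.42, 14.39 and 14.43 in mated, 14.33, 14.39, 14.45, 14.33 and 14.33 in courted, and 14.46, 14.42, 14.47, 14.44 and 14.33 in control replicates. Courted replicates 1, 4 and 5 lay at the bottom beside control replicate 5. Courted heads differed from control heads by -0.059 (SE 0.05, limma adjusted p = 0.99), and mated from control heads by -0.00050 (SE 0.05, limma adjusted p = 0.997). RpS21 read 13.68, 13.75, 13.73, 13.71 and 13.71 in mated, 13.65, 13.69, 13.74, 13.78 and 13.68 in courted, and 13.71, 13.79, 13.85, 13.75 and 13.71 in control replicates. Its arrays overlapped, and the differences from control heads were -0.043 in mated and -0.053 in courted heads. RpS27A, like RpL40 a fusion to ubiquitin, differed by 0.033 in mated heads (SE 0.04, limma adjusted p = 0.78). RpS28b and RpS7 were lower than their paired control in 5 of 5 mated arrays, by means of -0.029 and -0.035. With RpL29 and RpS29 this made 4 of 33 members with the same sign in all pairs, beside 10.2% of all probe sets.

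Within groups the ribosomal protein genes varied little. The pooled standard deviation over the 3 groups had a median of 0.052 among the 33 members and 0.126 among all 7631 probe sets in GC-RMA, and 30 members lay below 0.126. RpS28b (0.020), RpL36A (0.021) and RpS15 (0.030) had the smallest spread, and RpLP2 (0.28), RpLP0 (0.21) and RpL24-like (0.14) the largest. Without courted replicate 4 the spread of RpLP2 was 0.20, that of RpLP0 0.14 and that of RpL24-like 0.11. The 326 other probe sets with a mean above 10000, the intensity range of 29 of the 33 members, also varied little, with a median of 0.076, and no test of the difference was made.

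The spread depended on how intensities were summarised. In dChip PM the median was 0.034 for the members and 0.140 for all probe sets. In MAS5.0 it was 0.169 for the members, above the 0.152 of all probe sets. There the members shifted as a group from array to array: the median deviation from a gene's mean was -0.36 in control replicate 2 and -0.27 in courted replicate 4, and reached 0.19 in control replicate 3. The 326 other bright probe sets shifted with them, by -0.28 in control replicate 2, -0.21 in courted replicate 4 and 0.16 in control replicate 3. In GC-RMA, which puts the probes of all arrays on a common distribution, the members' median deviation stayed between -0.043 and 0.050.

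**Figure D4:**
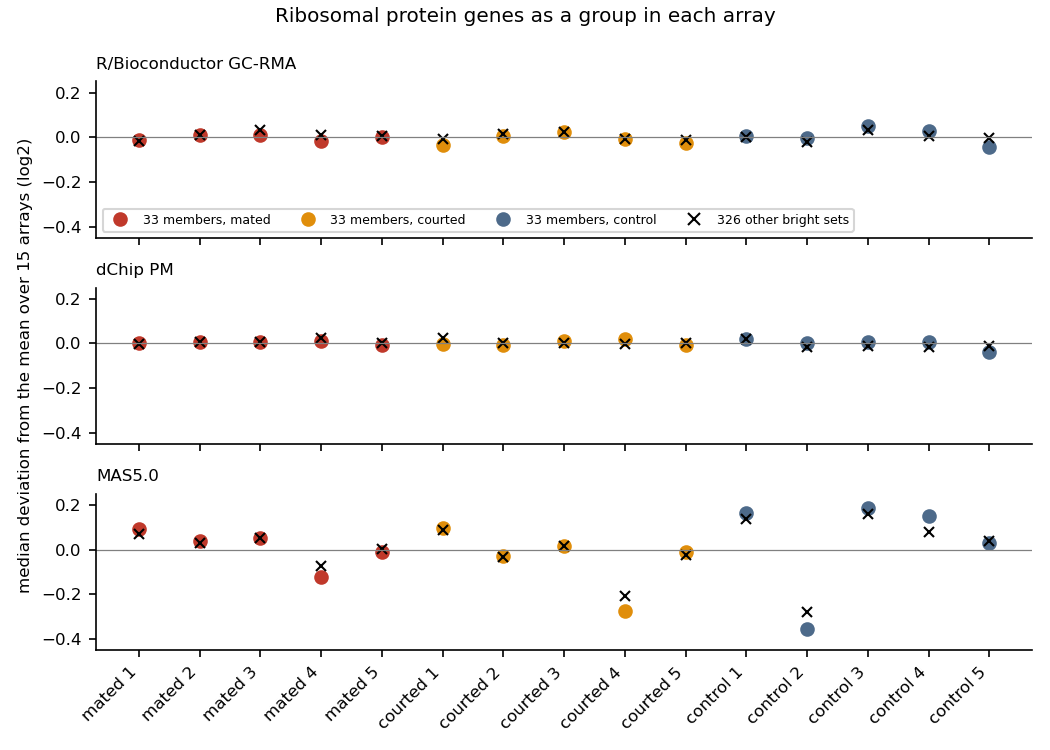
Median deviation of the 33 members (circles, coloured by group) and of 326 other bright probe sets (crosses) from their mean over 15 arrays, on the log2 scale, for each mated, courted and control array in R/Bioconductor GC-RMA, dChip PM and MAS5.0. Circles stay near 0 in GC-RMA and dChip PM, and in MAS5.0 fall to -0.36 in control replicate 2 and -0.27 in courted replicate 4, with the crosses falling beside them.

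The direction of the small differences depended on the algorithm as well. In MAS5.0 the median log2 difference was -0.021 for mated against control heads, with 6 of 33 members above 0. For courted against control heads it was -0.081, with 3 of 33 above 0, and for mated against courted heads 0.054, with 28 of 33 above 0. No member passed an adjusted p of 0.05 or an unadjusted p of 0.05 in MAS5.0 or dChip PM. In dChip PM the members stood near balance, with 19 of 33 above 0 and a median of 0.0023 for mated against control heads, 15 and -0.0030 for courted against control heads, and 18 and 0.0014 for mated against courted heads. Over GC-RMA, dChip PM and MAS5.0, 5 members were above 0 and 13 below 0 in all 3 for mated against control heads. RpL29, RpL7-like, RpL24-like and RpS30 were among those below, and RpL15, RpL36A, RpL39, RpL41 and RpS20 were those above.

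As a share of all intensity on an array the 33 genes took 4.26 to 4.33% in mated, 4.18 to 4.30% in courted and 4.13 to 4.47% in control arrays in GC-RMA. Mated arrays fell within the control range. In MAS5.0 the shares were 2.91 to 3.24% in mated, 2.66 to 3.27% in courted and 2.57 to 3.45% in control arrays, lowest in control replicate 2.

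Members also moved together to a degree. After group means were removed, the median correlation over the 15 arrays between pairs of members was 0.25, with 73.9% of the 528 pairs above 0. It was 0.056 between the 326 other bright probe sets and 0.029 between all probe sets. Without courted replicate 4 the members' median was 0.31. RpL37A and RpL40 had the highest median correlation with the other members (0.47 and 0.46), and RpL41 (-0.17) and RpL29 (-0.022) the lowest. These values describe arrays that share labelling and normalization.

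Several ribosomal protein genes of Drosophila exist as pairs, of which a copy is often used mainly in the germ line. The 8 members below the threshold were such copies or relatives: RpL10Aa, RpL22-like, RpL37-2, RpS5b, RpS10a, RpS19b, RpS28a and RpS28-like. Their GC-RMA intensities lay between 3.98 and 20.1 in every array. In dChip PM, where 39 of 41 members were above its threshold of 50, so were 6 of these 8, with RpL10Aa and RpS19b below it by their mean over the 15 arrays. There RpS5b averaged 649 in mated, 560 in courted and 629 in control heads, and RpS10a averaged 143 in mated, 132 in courted and 136 in control heads. In MAS5.0, with a threshold of 100, the group means of all but RpS5b were below it. RpS5b averaged 17.96 in mated, 64.8 in courted and 108.3 in control heads there, with 282.6 in control replicate 2. The partners RpL10Ab, RpL37-1 and RpS28b were above the threshold. RpL10Ab averaged 14.37 ± 0.06 in mated, 14.34 ± 0.08 in courted and 14.37 ± 0.07 in control heads (SD, n = 5 each). RpL37-1 averaged 14.49 ± 0.04 in mated, 14.51 ± 0.07 in courted and 14.53 ± 0.06 in control heads, and RpS28b averaged 14.82 ± 0.02 in mated, 14.82 ± 0.02 in courted and 14.85 ± 0.02 in control heads. None of these 3 passed the test in any comparison.

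The other genes of protein synthesis were counted from lists, which were chosen with earlier results of these data known. Their shares are therefore a description and no test of a list. Of all 7631 probe sets, 0% passed an adjusted p of 0.05 and 9.53% an unadjusted p of 0.05 for mated against control heads. Among 5 elongation and termination factors, 0 passed an adjusted p of 0.05 for mated against control heads in limma and 0 an unadjusted p of 0.05, with a median of 0.029. Among 16 initiation factors 0 passed the adjusted and 1 the unadjusted threshold, with a median of -0.018. That gene was eIF6, which keeps free large subunits from joining small ones. It averaged 9.10 ± 0.03 in mated and 9.23 ± 0.10 in control heads (SD, n = 5 each), lower in 5 of 5 pairs, with a difference of -0.13 (SE 0.05, unadjusted p = 0.033, limma adjusted p = 0.50). Of 8 ribosome-associated proteins, 0 passed either threshold, with a median of -0.016.

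The 14 genes of ribosome assembly and RNA polymerase I had a median difference of 0.11 in mated heads, beside -0.015 over all probe sets and -0.017 over the ribosomal protein genes. In that list 11 genes were above 0, beside 42.8% of all probe sets. None passed the adjusted threshold, and at an unadjusted p under 0.05, 5 of 14 were higher and 1 lower, against 3.70% and 5.83% of all probe sets. The genes of the list share the same arrays, and the list was not tested as a set. The count of 5 higher genes was 2 with no replicate block, and 3 in the fit of all 15 arrays, in MAS5.0 and without replicate pair 2, 3 or 5. The summed glial and haemocyte markers also lay mostly higher in mated than in control heads (values above), and their part in the list's difference was not tested. Fib, which encodes fibrillarin, the methyltransferase of ribosomal RNA, averaged 7.22 ± 0.09 in mated and 7.09 ± 0.08 in control heads, a difference of 0.13 (SE 0.04, limma adjusted p = 0.50). The assembly factor bys averaged 8.55 ± 0.06 in mated and 8.40 ± 0.14 in control heads, a difference of 0.15 (SE 0.05, limma adjusted p = 0.50). Both were higher in 5 of 5 pairs. Nop17l was lower in 5 of 5 pairs, at 10.65 ± 0.11 in mated and 10.86 ± 0.08 in control heads (SD, n = 5 each), a difference of -0.21 (SE 0.05, unadjusted p = 0.0021, limma adjusted p = 0.27). The list's median was 0.082 in dChip PM and 0.032 in MAS5.0. For courted against control heads it was 0.052, with 1 of 14 genes higher and 0 lower at an unadjusted p under 0.05.

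Of 9 genes that control growth and ribosome production, 8 were above 0 for mated against control heads, with a median of 0.050. Of all probe sets 42.8% were above 0, with a median of -0.015. None of the 9 passed the adjusted threshold in limma. At an unadjusted p under 0.05, 1 was higher and 1 lower, against 3.70% and 5.83% of all probe sets. Without replicate pair 3, 6 of 9 genes were above 0 with a median of 0.031. Without pair 4 the median was 0.023, and in GeneSpring GC-RMA it was 0.028. Without pair 5 it was 0.079. The exception in direction was foxo, the transcription factor that insulin signalling holds back. It averaged 8.36 ± 0.21 in mated and 8.59 ± 0.23 in control heads (SD, n = 5 each), lower in 5 of 5 pairs, with a difference of -0.23 (SE 0.07, unadjusted p = 0.015, limma adjusted p = 0.48). Tsc1, a brake on the TOR kinase, averaged 9.70 ± 0.05 in mated and 9.56 ± 0.12 in control heads (SD, n = 5 each), higher in 5 of 5 pairs, with a difference of 0.14 (SE 0.05, unadjusted p = 0.031, limma adjusted p = 0.50).

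**Figure D5:**
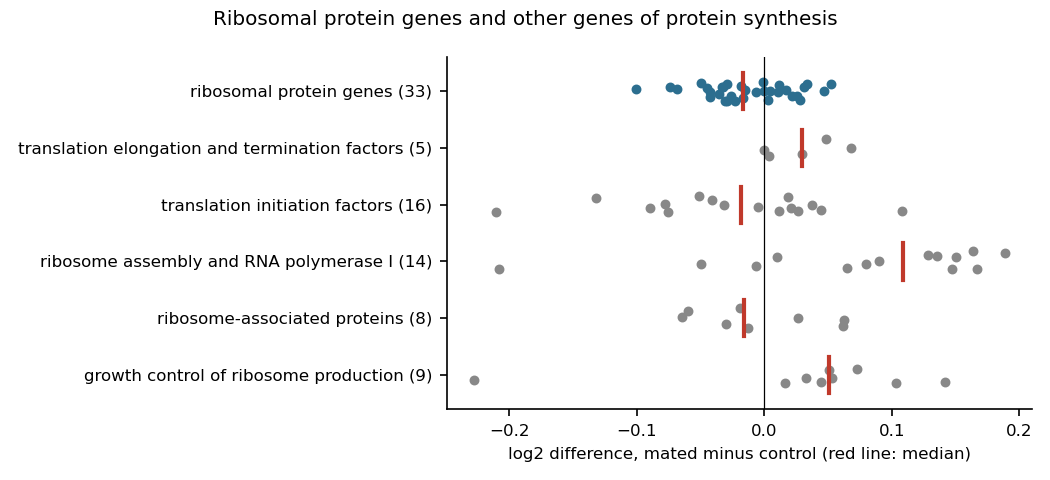
Log2 difference, mated minus control, of the 33 ribosomal protein genes (top row) and of the genes of 5 other lists of protein synthesis (points, number of genes in brackets), with the median of each list as a red line. The ribosomal protein genes lie between -0.10 and 0.052 around a median of -0.017, and the assembly and RNA polymerase I list has a median of 0.11.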

How the data were processed

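The authors deposited linear intensity values per probe set, made by 5 algorithms, namely dChip PM, dChip PM-MM, MAS5.0 (GCOS 1.2) and GC-RMA as run in GeneSpring or in R/Bioconductor. For the other programs no version was stated. The 75 columns are 5 versions of 15 arrays, counted as 15 arrays. The GeneSpring values are empty at place 3092 and were moved up 1 place below it, after which they had a correlation of 0.988 with R/Bioconductor GC-RMA. Intensities under 1 were set to 1 before log2. Probe sets with a mean above 100 (dChip: 50) were tested in R/Bioconductor GC-RMA by lmFit and eBayes of limma 3.58.1 (R 4.3.3), blocked on the replicate number, with Benjamini-Hochberg adjustment. The fit was tested on simulated data. GC-RMA puts all arrays on a common probe distribution, which can narrow shifts shared by the brightest genes. Precision is limited by the number of arrays.

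The pairing comes from the methods and the labels, by which males of the groups were collected together, and array pools carry the same letter. Deviations of same-numbered arrays from their group means correlated at 0.089 to 0.48 for mated and control, -0.31 to 0.33 for courted and control, and -0.45 to 0.16 for mated and courted arrays. Mated and control arrays are pairs by the methods, and the same block was kept for courted arrays.

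Members and lists were chosen with earlier results of these data known. Every member could be named. Array values were given for RpL32, the stalk genes and the 5 members with the lowest p per comparison, and up to 3 genes of a list by lowest p. Second probe sets were given for RpL3 and RpS29, where one assigned to that gene alone was above the threshold. Relations between stalk genes were tested by permutation. The 47 probe sets of members assigned to 1 gene were used, and 3 assigned to several genes were left out. Of those left out, the set naming RpL28 gave 0.13 (SE 0.05) for mated against control heads, against -0.017 for the brightest. The set naming RpLP0 gave -0.023 (SE 0.08) for courted against control heads, against -0.15 for the brightest. The alternatives were the other 4 algorithms, no block, a fit of 15 arrays, limma-trend, a Cyber-T style test, no filter, 2 further normalizations, the mean of a gene's probe sets and leaving out replicates. Sequences are not shown.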

Additional observations from a re-analysis of the deposited data

Results flagged for a closer look

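Each of the 33 members was checked in the mated, courted and control group for an array far from the other 4, which made 99 checks, and such a check marks about 1 in 20 groups by chance. It marked 4, all in mated heads. RpL15 read 15.24 in mated replicate 3, above the next array at 15.18. RpL39 read 14.73 in mated replicate 4, above the next at 14.65. RpLP0-like read 7.83 in mated replicate 4, below the next at 7.99. RpLP2 read 14.24 in mated replicate 4, above the next at 14.08. None of the 4 was in courted replicate 4, where the spread among the other courted arrays kept RpLP0 and RpLP2 from being marked. For 0 members did all mated arrays move one way and all courted arrays the other way from their control. Only 1 member, RpS28b, had the same sign in all courted pairs, beside 5.48% of all probe sets. It was lower in all mated pairs too, so that this count had little room to differ from 0.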

How the results depend on the processing

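No ribosomal protein gene passed an adjusted p of 0.05 in any of the 3 comparisons, under any of the 19 alternatives. Among the named members, 33 of 513 values under the alternatives had another sign than the reported difference, and none of them was called. The difference itself cannot change with no block, in the fit of all 15 arrays, with limma-trend, the Cyber-T style test or no filter. Those values are among the 513, so that the count does not measure how stable the signs are. Over all probe sets, the count called for mated against control heads was 0 with the replicate block and 1 with no replicate block, 3 in the fit of all 15 arrays, 9 with limma-trend and 37 with the Cyber-T style test, and 0 to 1 when a replicate pair was left out. For mated against courted heads it was 0 with the block, 3 with no block, 4 in the fit of all 15 arrays, 5 with the Cyber-T style test and 0 to 1 when a pair was left out. Fits without courted replicate 4 were chosen after seeing the data. With it left out of the fit of all arrays, 17 probe sets were called for mated against control and 2 for mated against courted heads, and with no block 1 in each. The median difference of the members for courted against control heads was -0.022, and moved to -0.081 in MAS5.0 and 0.0093 in dChip PM-MM. For mated against courted heads it was 0.0078, and moved to 0.054 in MAS5.0, -0.0038 in dChip PM-MM, -0.0042 in GeneSpring GC-RMA, 0.017 with each array centred on its median and -0.0065 with quantile normalization. The cause was not tested. With no filter on low values, RpL29, RpS28b, RpS29 and RpS27A had an unadjusted p under 0.05 for mated against control heads. The lowest was 0.0026 (RpL29, limma adjusted p = 0.61). In that setting 1010 of 18769 probe sets had an unadjusted p under 0.05. The difference of RpL29 was unchanged there, and its standard error was 0.012 against 0.041 in the main fit. For courted against control heads RpS30 and RpS28b had an unadjusted p under 0.05, beside 543 of 18769 probe sets.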

Other observations

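Of the 8 members below the threshold, 4 were highest in control replicate 2 and the other 4 in courted replicate 3 in GC-RMA. The latter hardly varied and lay far below the threshold. In linear intensity RpL10Aa spanned 4.38 to 4.47, RpS10a 4.57 to 4.69, RpS28a 3.98 to 4.11 and RpS28-like 5.41 to 5.72. RpS5b, a copy known mainly from the germ line, read 20.1 in linear intensity in control replicate 2, against 6.0 to 6.8 in the other 14 arrays, and RpL22-like read 6.98 there, against 4.49 to 4.56. In GeneSpring GC-RMA RpS5b read 90.2 in control replicate 2 against 21.0 to 44.9, and in dChip PM 623 against 478 to 682. None of the 7 markers of testis and male germ line was highest in that array, where bam read 8.13 and vas 4.70.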
